A study of Rattus norvegicus with 192 samples.

Results

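Tcf7l2, Prkcd, Tnnt1 and Calb2 were examined as markers of the thalamus in hippocampus and prefrontal cortex samples of adult rats. All probes annotated with 1 of these symbols were taken, which gave 1 probe per gene, or 4 genes of the 13336 named genes on the array. Expression was measured on Illumina rat BeadChips in female Sprague Dawley rats. The rats were daughters of dams fed an ethanol diet (36% of calories from ethanol), a pairfed liquid diet or control chow during gestation days 1 to 21. At 50 to 65 days of age they received complete Freund's adjuvant, which induces arthritis (0.1 ml at 12 mg/ml), or saline, and tissue was taken 16 or 39 days later. This gave 12 groups in each tissue, 24 in all, with 84 hippocampus and 87 prefrontal cortex samples, and 84 rats gave both tissues.  Each saline group held 5 rats at day 16 and 6 at day 39. Each adjuvant group held 9, apart from the day 39 hippocampus, with 7 pairfed and 8 control rats. Which rats were littermates was not known, and every test counts a rat as its own sample.

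The thalamus lies directly beneath the dorsal hippocampus and relays sensory and motor information to the cortex. Tcf7l2 encodes a transcription factor of the Wnt pathway that binds DNA together with beta-catenin and is a defining regulator of thalamic neurons. Prkcd encodes protein kinase C delta, a signalling kinase abundant in sensory relay nuclei of the thalamus. Calb2 encodes calretinin, a calcium-binding protein of midline thalamic neurons that also marks inhibitory interneurons in hippocampus and cortex. Tnnt1 encodes slow skeletal troponin T, a muscle protein that is also used as a thalamic marker in rodents. In whole tissue samples, fewer cells of a type and less RNA per cell cannot be told apart.

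The promoters of Tcf7l2 and Prkcd are shown because these genes varied together in the hippocampus. Each window runs from 250 bases before to 50 bases after the start in RefSeq's table, and 3 of the 4 genes had an entry. For Prkcd that start lies inside the gene's span in the same table, so which of its transcripts the window belongs to is not known. The positions are chr1:264791085-264791384 on the plus strand for Tcf7l2 and chr16:5805790-5806089 on the minus strand for Prkcd, in build GRCr8. Both are written 5′ to 3′ in lower case.
Tcf7l2: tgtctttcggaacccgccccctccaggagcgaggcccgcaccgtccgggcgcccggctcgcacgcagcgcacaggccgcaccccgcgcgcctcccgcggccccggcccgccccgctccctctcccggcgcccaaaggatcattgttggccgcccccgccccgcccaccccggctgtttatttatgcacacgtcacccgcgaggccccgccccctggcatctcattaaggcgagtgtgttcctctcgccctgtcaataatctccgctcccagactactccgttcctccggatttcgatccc
Prkcd: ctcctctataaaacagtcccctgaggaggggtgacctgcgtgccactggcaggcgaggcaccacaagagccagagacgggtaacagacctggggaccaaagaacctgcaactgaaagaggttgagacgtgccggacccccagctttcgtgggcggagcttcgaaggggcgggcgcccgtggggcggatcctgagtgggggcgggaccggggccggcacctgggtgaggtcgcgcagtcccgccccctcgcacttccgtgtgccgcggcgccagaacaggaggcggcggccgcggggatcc
The letters CTTTGAT, a core that Tcf7l2 proteins bind, were searched on both strands, and neither window held them, so nothing is in capitals. They were present in 1216 of 33469 promoter windows of the same length, or 3.63%. The G and C content was 70.3% for Tcf7l2 and 69.0% for Prkcd, and its median over all windows was 51.7%.

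Arrays detected between 8140 and 11235 probes in the hippocampus and between 7578 and 10949 in the prefrontal cortex, at a detection p-value below 0.05. Values are log2 signals after background correction with an offset of 16 and quantile normalization, so differences between low signals are understated. A rat's cortex array was matched to the hippocampus array of the same rat over probes that correlated between tissues across rats, chosen without the 2 rats doubted from earlier results. With probes above a correlation of 0.8 (18 probes), 76 of 84 rats matched their own array best. With a cutoff of 0.7 (32 probes), which was chosen after that result was seen, 83 of 84 did. Apart from the 2 doubted rats, the probes were chosen on the rats that were matched, so these counts are no independent check. At both cutoffs pairfed saline day 16 replicate 3 did not match, with r = 0.238 and 0.288 to its own array. It was already doubted in earlier results of these data, as was ethanol saline day 39 replicate 2, which did not match at 0.8 and matched at 0.7. Both replicate numbers are those of the cortex array, and a rat can hold another number in the hippocampus.

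Prkcd spread widely among hippocampus samples. Its log2 signal ran from 4.56 to 10.2 with a median of 6.42, and it was detected in 78 of 84 rats. The 6 lowest values were not detected and are only upper bounds, and the detected values ran from 5.55 to 10.2, a 25.1-fold range. In the prefrontal cortex it ran from 4.86 to 7.44 with a median of 6.60 and was detected in 85 of 87 rats. In 31 hippocampus samples Prkcd lay above the highest cortex value. Of the hippocampus samples 47 lay under 7, 11 between 7 and 8 and 26 at 8 or more. The largest gap between neighbours was 0.475, and whether the values form separate classes was not tested. Within groups the SD of Prkcd was 1.48 in the hippocampus, rank 17 of 15320 tested probes, and 0.442 in the cortex, where the median over tested probes was 0.386.

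Tcf7l2 was dim in both tissues. In the hippocampus it ran from 4.46 to 6.70 with a median of 5.23 and was detected in 28 of 84 rats. In the cortex it ran from 4.56 to 6.07 with a median of 5.22 and was detected in 17 of 87 rats. The medians were alike, and only the upper part of the hippocampus range lay above the cortex. Calb2 ran from 5.00 to 7.39 in the hippocampus, with a median of 6.21, and was detected in 77 of 84 rats. In the cortex it ran from 4.53 to 7.67 with a median of 5.999 and was detected in 72 of 87 rats. Tnnt1 ran from 4.43 to 6.24 in the hippocampus and from 4.58 to 6.39 in the cortex, and was detected in 25 of 84 and 36 of 87 rats. Tnnt1 was not detected in any rat of 3 hippocampus and 2 cortex groups, and Tcf7l2 in none of 1 cortex group, so their levels there are only upper bounds.

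**Figure D1:**
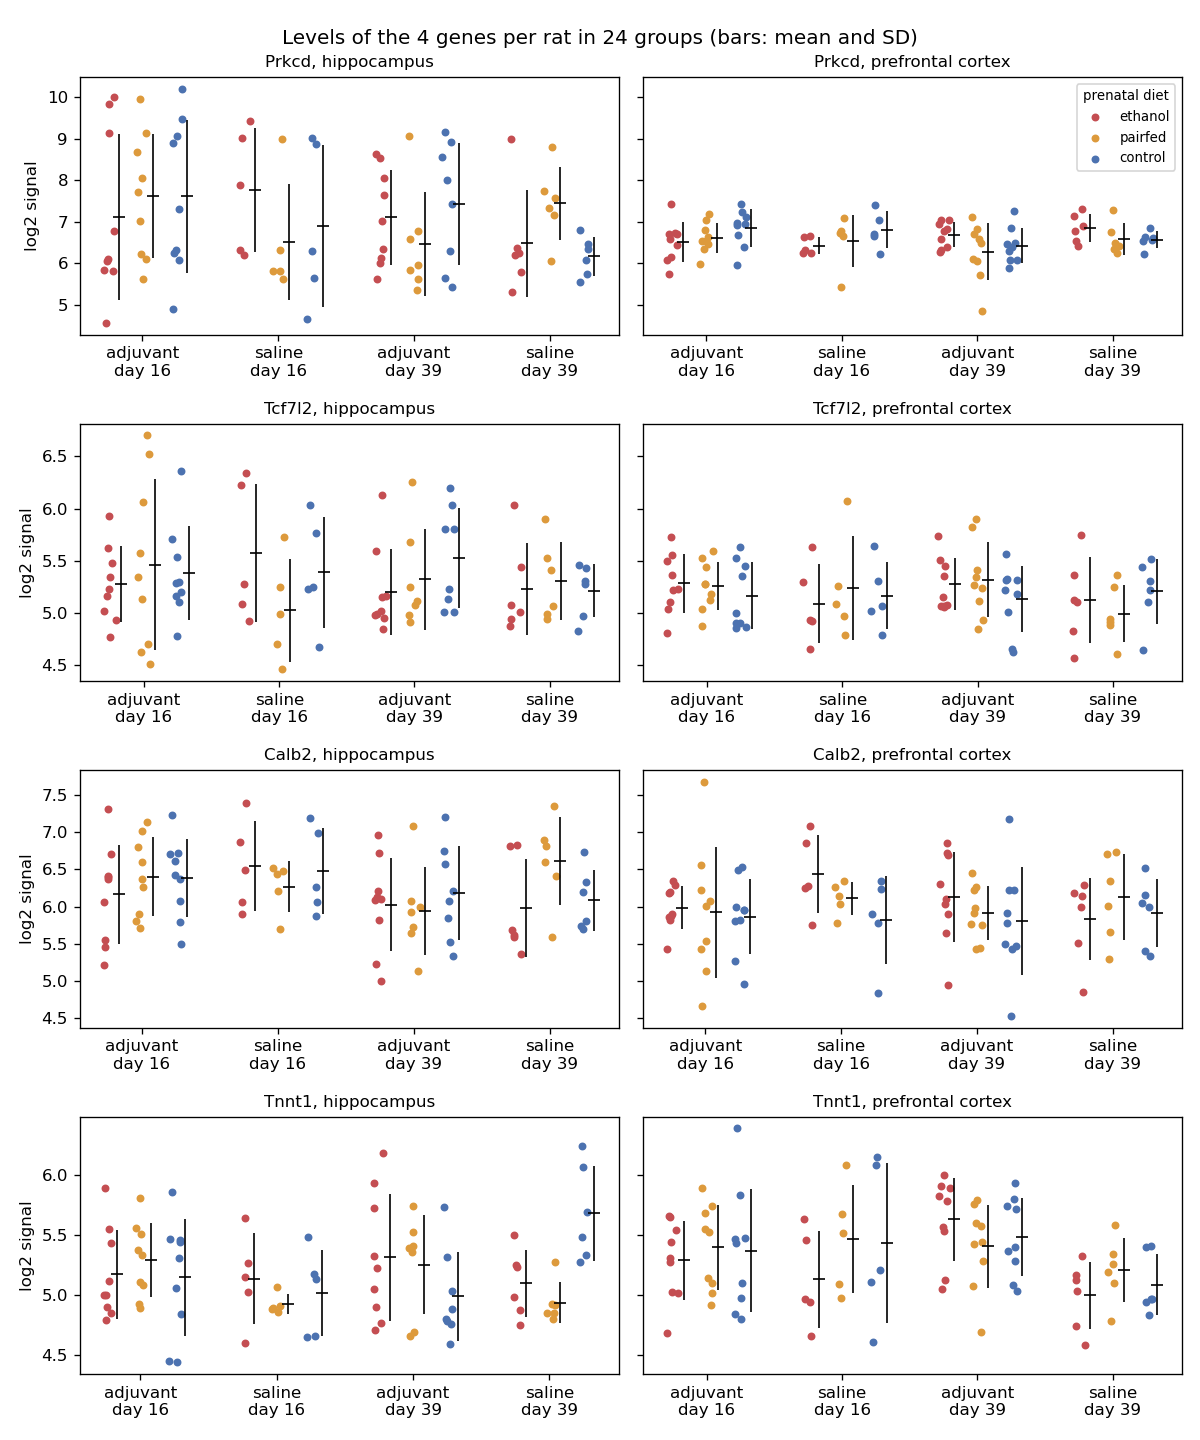
Log2 signal of Prkcd, Tcf7l2, Calb2 and Tnnt1 (rows) in each rat of the 12 hippocampus groups (left) and 12 prefrontal cortex groups (right), coloured by prenatal diet, with the mean and SD of each group beside its points. Prkcd spreads from 4.56 to 10.2 in the hippocampus and from 4.86 to 7.44 in the cortex, and its groups overlap.

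The difference between tissues was tested in the 84 rats with both, with the rat as a block and the chip as a random block. Prkcd was higher in the hippocampus than in the prefrontal cortex by 0.52 ± 0.17 log2 (SE, limma adjusted p = 0.0086), with means of 7.10 ± 1.47 and 6.58 ± 0.452 (SD, n = 84 each). It was higher in the hippocampus of 48 rats and lower in that of 36. The differences of single rats ran from -2.17 to 3.85 with a median of 0.151, well under the mean difference. Calb2 was higher by 0.27 ± 0.09 (adjusted p = 0.0135), in 49 of 84 rats. Tnnt1 had a difference of -0.17 ± 0.07 (adjusted p = 0.0409) and was lower in the hippocampus of 53 of 84 rats. This call was lost in 7 of 11 alternative settings, with adjusted p from 0.0223 to 0.593 over all 11. Tcf7l2 had a difference of 0.13 ± 0.07 (adjusted p = 0.137), with a 95% interval from -0.0042 to 0.262. Of all 16129 tested probes 34.5% passed the same threshold, 17.2% higher and 17.2% lower in the hippocampus, so 3 calls among 4 genes stand against a high background. Each chip held 1 tissue, so a difference between the chips of the tissues cannot be told apart from the tissue itself beyond the random block.

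**Figure D2:**
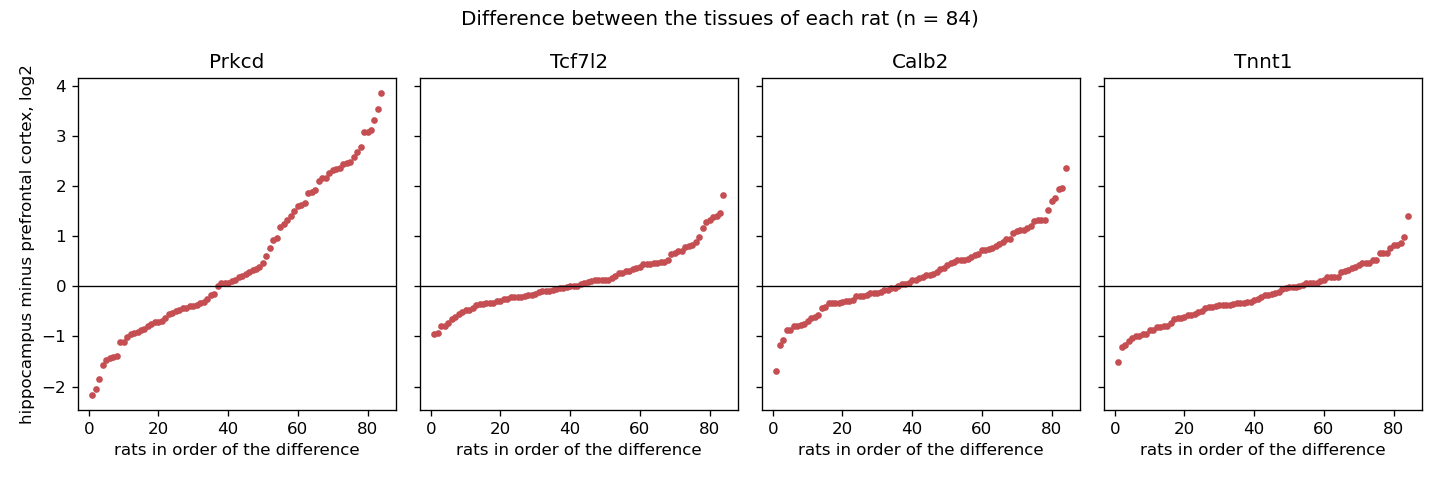
Hippocampus minus prefrontal cortex of the log2 signal in each of 84 rats, ordered within each gene. Prkcd runs from -2.17 to 3.85 and is above 0 in 48 rats, while Calb2 is above 0 in 49 and Tnnt1 below 0 in 53.

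The spread of Prkcd between rats was larger in the hippocampus than in the cortex of the same rats. After group and chip were removed its SD was 1.37 in the hippocampus and 0.381 in the cortex, a ratio of 3.59 (permutation of the tissues within rats, adjusted p = 4e-05). Tcf7l2 had a ratio of 1.56 (adjusted p = 0.00024). The ratios of Calb2, 1.01, and Tnnt1, 0.898, did not pass (adjusted p = 0.911 and 0.422). This test and the test of correlations between tissues were added after the values were seen. The correlation of Prkcd between the hippocampus and the cortex of a rat did not pass the test (r = 0.086, rho = 0.085, n = 84, adjusted permutation p = 0.976 and 0.631), and r for the other 3 genes lay between -0.038 and 0.074.

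Repeat arrays of the same RNA showed how much of this spread the array can give. In the hippocampus 4 rats had 16 arrays between them, and the SD of Prkcd between repeats was 0.357, against 1.48 between rats within groups, or 4.15 times as large. One rat with a high level had repeats between 7.90 and 8.57, and the other 3 rats had repeats between 5.35 and 6.59. Tcf7l2 had an SD of 0.325 between repeats and 0.504 between rats. For Tnnt1 (0.369 and 0.383) and Calb2 (0.584 and 0.578) the spread between rats was about that between repeats of the same rat. In the cortex, with 11 arrays of 2 rats, the SD between repeats was 0.384 for Prkcd and 0.469 for Tcf7l2, against 0.442 and 0.325 between rats. For Calb2 and Tnnt1 in the cortex it was 0.257 and 0.301 between repeats, against 0.565 and 0.385 between rats. For 3 repeat arrays of 1 hippocampus rat the labels conflict on the injection. Without that rat the ratio of Prkcd was 4.13, and those of Tcf7l2, Tnnt1 and Calb2 were 1.46, 0.990 and 1.11.

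**Figure D3:**
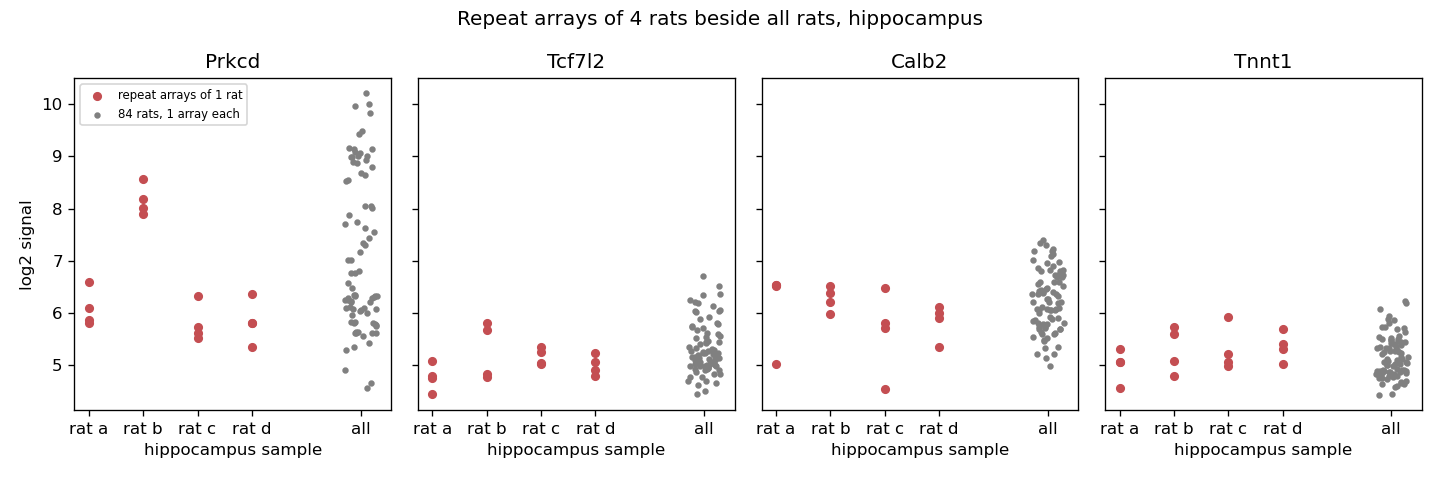
Log2 signal on repeat arrays of 4 rats (rat a to d, 4 arrays each) beside the single arrays of all 84 rats in the hippocampus. The SD between repeats of Prkcd is 0.357, while rats spread from 4.56 to 10.2.

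Prkcd, Tcf7l2 and Calb2 varied together among hippocampus samples of the same group and chip. Prkcd and Tcf7l2 correlated with r = 0.583 (rho = 0.541, n = 84, permutation p = 1e-05, the smallest that 100000 permutations can give, adjusted p = 3e-05 over 6 pairs). The correlation was positive on 8 of 8 chips and stayed at 0.538 without the 2 rats farthest from the median of Prkcd. Prkcd and Calb2 correlated with r = 0.463 (rho = 0.418, adjusted permutation p = 3e-05), or 0.389 without 2 rats. Tcf7l2 and Calb2 correlated with r = 0.431 (rho = 0.363, adjusted permutation p = 8e-05), or 0.404 without 2 rats. Both were positive on 8 of 8 chips. None of the 3 pairs with Tnnt1 passed, and its r was -0.049 with Prkcd, 0.162 with Tcf7l2 and 0.097 with Calb2 (adjusted permutation p = 0.656, 0.209 and 0.460).

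In the prefrontal cortex none of the 6 pairs passed, and Prkcd and Tcf7l2 had r = -0.176 (rho = -0.215, n = 87, adjusted permutation p = 0.435 and 0.272). Tcf7l2 was detected there in 17 of 87 rats, and its SD between rats, 0.325, was below that between repeats, 0.469. A low r with Tcf7l2 in the cortex thus cannot show that the genes vary apart there, and the differences in r with Tcf7l2 share this limit. Over the 84 rats with both tissues, r was higher in the hippocampus by 0.726 for Prkcd and Tcf7l2 (adjusted p = 6e-05, permutation of tissues within rats), by 0.650 for Prkcd and Calb2 (adjusted p = 0.00042) and by 0.517 for Tcf7l2 and Calb2 (adjusted p = 0.00518). The 3 pairs with Tnnt1 did not differ beyond this test (adjusted p = 0.731 to 0.902). Prkcd had r = -0.038 with the number of probes detected on an array in the hippocampus. Its median on single hippocampus chips ran from 6.32 to 7.76. The lowest rat of a chip lay between 4.56 and 5.82 and the highest between 9.15 and 10.2.

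**Figure D4:**
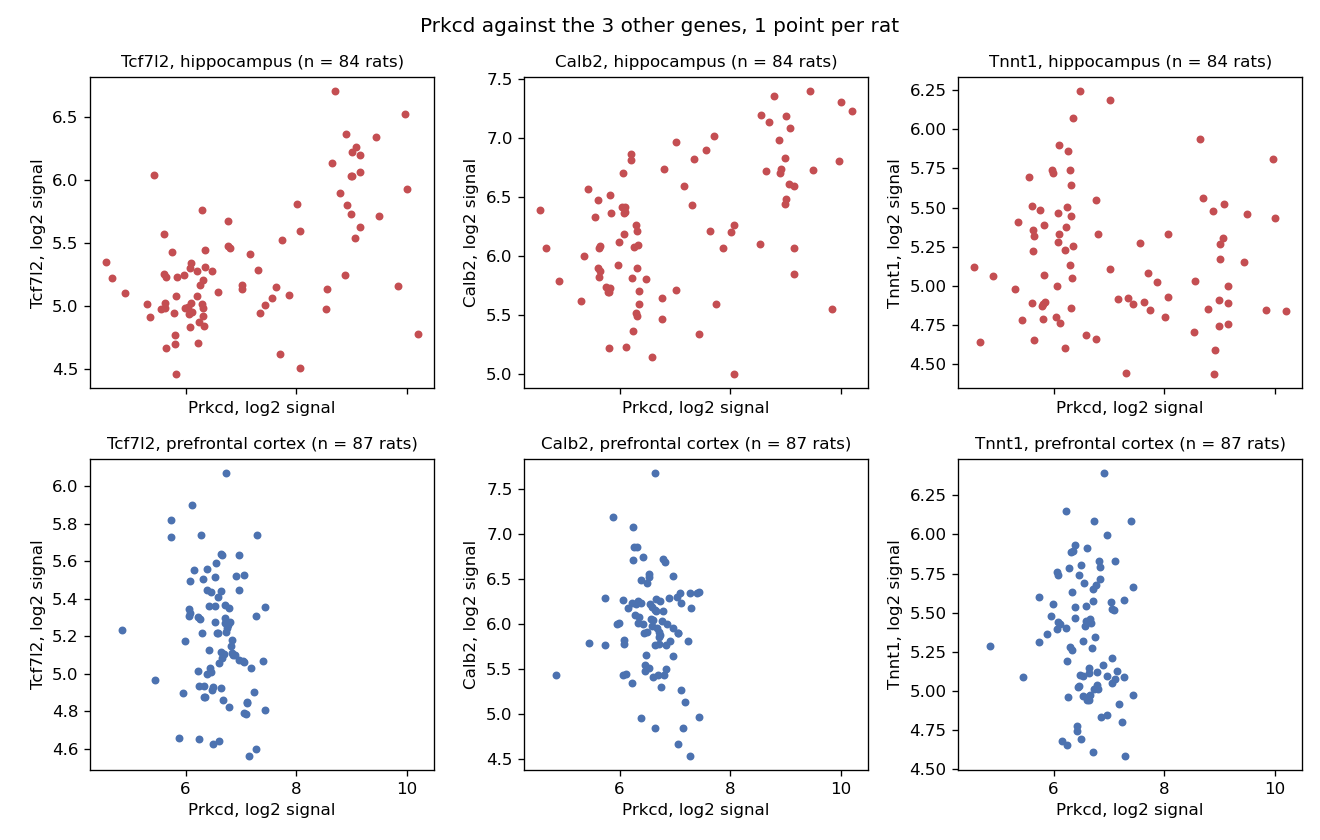
Log2 signal of Tcf7l2, Calb2 and Tnnt1 against that of Prkcd, 1 point per rat, in the hippocampus (top, n = 84) and the prefrontal cortex (bottom, n = 87). Tcf7l2 and Calb2 rise with Prkcd in the hippocampus (r = 0.583 and 0.463 after group and chip are removed), and Tnnt1 does not (r = -0.049).

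Only named genes are listed here, and other probes can rank between them. The genes whose pattern was most like that of Prkcd in the hippocampus were Synpo2 (r = 0.874), which encodes an actin-binding protein, Adra1b (0.856), the alpha-1B adrenergic receptor, and Shox2 (0.855), a homeodomain transcription factor. Slc17a6 (0.839), the vesicular glutamate transporter of subcortical neurons, and Ramp3 (0.783), a modifier of peptide hormone receptors, came next. In the cortex the same 5 genes had r between -0.088 and -0.014 with Prkcd. Lowest were Col5a1 (-0.636), Cdc40 (-0.630) and Tfdp1 (-0.604). In the hippocampus 117 of 15319 probes had r above 0.5 with Prkcd, and 0 of 15249 in the cortex. These are descriptions over 84 hippocampus and 87 cortex samples, whose points share RNA, chip and normalization. Tcf7l2 was most like Synpo2 (0.624), Nexn (0.590), Prkcd (0.583), Trh (0.578), the precursor of thyrotropin-releasing hormone, and Adra1b (0.561). Its lowest were Cks1b (-0.515), Nip7 (-0.481) and Ddx52 (-0.476). Calb2 was most like Sox14 (0.549), Rgs3 (0.507), Ctnnb1 (0.503), Hmox2 (0.490) and Tfap2b (0.488), and least like Dact3 (-0.483), Itgbl1 (-0.471) and Clcn2 (-0.466). Tnnt1 reached no r above 0.5 with any probe, and its highest was 0.449. Its nearest named genes were Abca2 (0.426), Mospd4 (0.423), Il12b (0.421), Kcnc1 (0.417) and Rrp7a (0.413), and its lowest Cldn17 (-0.440), Rpl21 (-0.414) and Rnf144b (-0.409).

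The other thalamic markers varied with the mean of Tcf7l2 and Prkcd in the hippocampus. The list of these markers was chosen with earlier results of these data known, so its correlations are descriptions and no independent check. Of 12 tested, 12 had a positive r and 6 had r above 0.5, with a median of 0.546, and the median over all tested probes was -0.001. Synpo2 (0.884), Shox2 (0.846), Slc17a6 (0.823), Ramp3 (0.785), Ntng1 (0.670), an axon guidance protein of thalamic neurons, and Pdp1 (0.642) were the 6. Cacna1g, a T-type calcium channel subunit of thalamic relay neurons, had r = 0.030. The mean of Tcf7l2 and Prkcd mostly followed Prkcd, whose SD after group and chip was 1.37, against 0.450 for Tcf7l2. With Prkcd alone the median r of the 12 was 0.541, and with Tcf7l2 alone r ran from 0.125 (Cacna1g) to 0.624 (Synpo2). Shox2 ran from 4.47 to 9.55 with a median of 5.45 and was detected in 44 of 84 rats. The mean of the 12 genes ran from 6.01 to 8.16 in the hippocampus and from 6.20 to 6.85 in the cortex. Its group medians ran from 6.40 to 6.93 in the hippocampus and from 6.39 to 6.59 in the cortex. The list held 18 genes, of which 13 were on the array and 12 passed the filter on detection. Of the 12, 3 were detected on under 50% of the hippocampus arrays and 6 on under 50% of the cortex arrays. Between tissues 5 of the 12 were higher in the hippocampus, 3 were lower and 4 were not called. Ntng1 was higher by 1.64 ± 0.08 and Slc17a6 by 1.46 ± 0.13, while Ramp3 was lower by -1.22 ± 0.10 and Pdp1 by -0.96 ± 0.07 (SE, limma adjusted p = 6.6e-35, 2.1e-18, 9.6e-19 and 8e-21 in this order).

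Markers of other cell types moved with Prkcd as well. Of the oligodendrocyte and myelin genes 13 of 13 had a positive r with the mean of Tcf7l2 and Prkcd, with a median of 0.453 and 4 above 0.5. Mbp (0.597), the myelin basic protein, Ermn (0.589) and Cryab (0.527) were highest, and Mbp ran from 7.53 to 12.1. In the tissue difference 11 of these 13 were higher in the hippocampus, among them Ermn by 0.85 ± 0.06 and Mobp by 0.81 ± 0.08. Of the choroid plexus genes 13 of 13 were positive with a median of 0.334 and none above 0.5. Otx2 (0.455) and Igfbp2 (0.446) were highest. In the tissue difference 10 of these 13 were higher in the hippocampus, 1 was lower and 2 were not called, with a median of 0.64. Ttr, which encodes the thyroid hormone carrier transthyretin, was higher in the hippocampus by 6.21 ± 0.25, and Igfbp2 was lower by -0.86 ± 0.14 (SE, limma adjusted p = 6.4e-41 and 4.6e-07 in this order). The habenula list had a median of 0.191 with 5 of 9 positive, led by Kctd8 (0.366) and Chrna3 (0.322). The mean of the 13 myelin genes ran from 8.73 to 10.6 in the hippocampus and from 8.51 to 10.005 in the cortex, and that of the 13 choroid plexus genes from 5.86 to 9.13 and from 5.77 to 6.39. In the hippocampus group medians ran from 9.48 to 10.1 for myelin and from 6.21 to 8.20 for choroid plexus genes. The mean of the 9 habenula genes ran from 5.65 to 6.77 in the hippocampus. Their part in the spread of Prkcd was not tested, nor was that of thalamic tissue at the edge of the dissection.

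Markers of the hippocampus and neocortex had medians near that of all probes. The hippocampus list had a median r of -0.076 with 6 of 13 positive. Coch (0.435) and Amigo2 (0.420) were highest, and Nr3c2 (-0.341) and C1ql2 (-0.215) were lowest. In the tissue difference 7 of these 13 were higher in the hippocampus and 3 lower, with C1ql2, a synaptic organizer of dentate granule cells, higher by 3.96 ± 0.07 and Neurod1 by 2.11 ± 0.09. Coch was among those lower in the hippocampus, by -1.88 ± 0.11. The neocortex list had a median of 0.008 (6 of 10 positive), inhibitory interneurons -0.078 (5 of 13), striatum 0.150 (8 of 10), and hypothalamus and midbrain 0.078 (9 of 11). In this order their single genes ran from -0.317 to 0.305, -0.513 to 0.179, -0.408 to 0.370 and -0.210 to 0.303.

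Families related to each of the 4 genes were set against that gene, in the same hippocampus residuals. Of 7 other protein kinase C genes 3 had a positive r with Prkcd, with a median of -0.024, and Prkch (protein kinase C eta) had 0.747 and Prkcq (protein kinase C theta) 0.492. Prkch ran from 4.51 to 8.32 in the hippocampus and was detected in 69 of 84 rats. Of 18 other Wnt and beta-catenin genes 11 had a positive r with Tcf7l2, with a median of 0.058. Ctnnb1 (0.243), which encodes beta-catenin, the receptor gene Lrp6 (0.226) and Lef1 (0.214), a DNA-binding partner of beta-catenin like Tcf7l2, were highest. Of 9 troponin and tropomyosin genes 4 had a positive r with Tnnt1, with a median of -0.010 and a highest of 0.137 for Tnni3. Of 13 calcium-binding protein genes 8 had a positive r with Calb2, with a median of 0.040, led by Kcnip1 (0.356) and Vsnl1 (0.323).

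**Figure D5:**
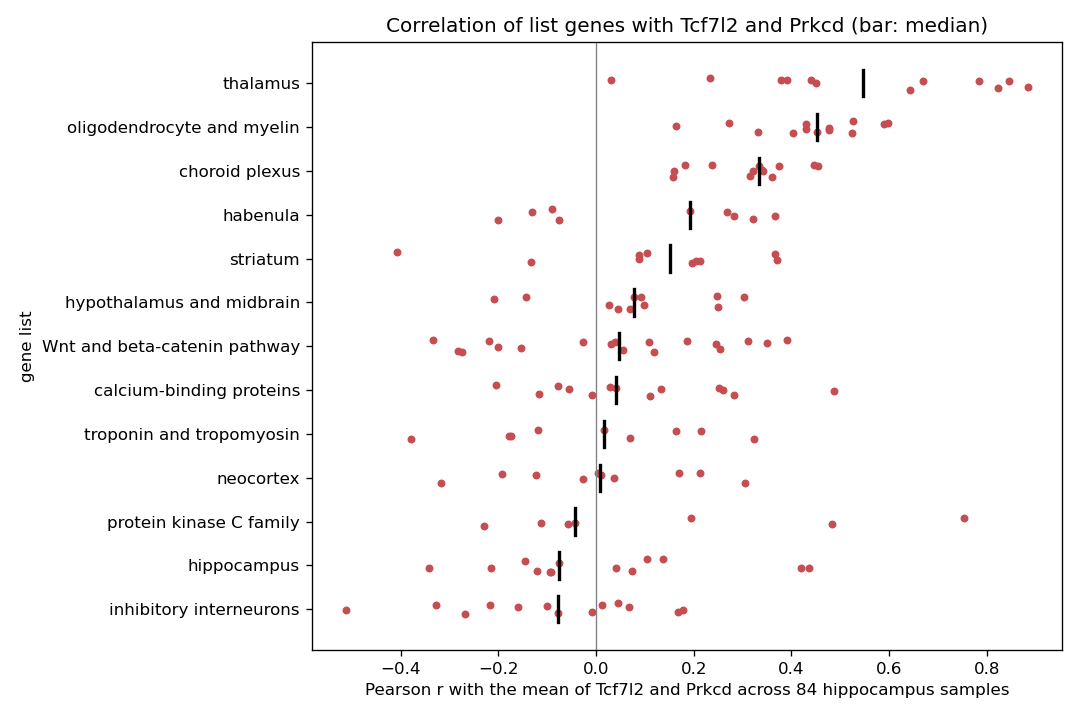
Pearson r of each list gene with the mean of Tcf7l2 and Prkcd across 84 hippocampus samples after group and chip were removed, with a bar at the median of each list. The thalamus list has the highest median, 0.546, followed by oligodendrocyte and myelin genes at 0.453. The lists were chosen with earlier results of these data known.

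None of the 4 genes passed the test for adjuvant or prenatal diet in either tissue. Of 80 tests over 4 genes, 10 comparisons and both tissues, 0 passed an adjusted p of 0.05 in limma and 2 had an unadjusted p below 0.05. Of all probes 0.0587% were called for adjuvant against saline at day 16 in the hippocampus, 0.125% in the cortex, 0.0131% for ethanol against control in adjuvant rats at day 39 in the hippocampus and 0% in the other comparisons. The averages given are means of group means, while the differences are adjusted for chip and need not equal the gap between averages. At day 16 Prkcd averaged 7.45 in adjuvant and 7.06 in saline hippocampus samples, with an adjusted difference of 0.45 ± 0.48 (SE, 95% interval -0.506 to 1.40, limma adjusted p = 0.907). At day 39 it averaged 6.999 in adjuvant and 6.70 in saline samples, 0.28 ± 0.46 (-0.641 to 1.21, adjusted p = 0.984). In saline rats Prkcd averaged 7.13 in the ethanol group and 6.53 in the control group, 0.60 ± 0.62 (adjusted p = 1). In adjuvant rats at day 16 it averaged 7.12 in ethanol and 7.61 in control samples, -0.49 ± 0.69 (adjusted p = 0.999). In adjuvant rats at day 39 it averaged 7.11 in ethanol and 7.43 in control samples, -0.37 ± 0.71 (adjusted p = 0.944). Against pairfed rats the ethanol differences were 0.12 ± 0.62 in saline rats (means 7.13 and 6.98), -0.46 ± 0.69 in adjuvant rats at day 16 (7.12 and 7.61) and 0.59 ± 0.74 in adjuvant rats at day 39 (7.11 and 6.46), with limma adjusted p from 0.979 to 0.9997. The largest differences were those of the adjuvant response at day 16, ethanol minus pairfed (-1.64 ± 1.15, 95% interval -3.94 to 0.654) and ethanol minus control (-1.36 ± 1.15, -3.65 to 0.941), which did not pass either (limma adjusted p = 0.9998 and 0.9996).

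In the hippocampus, the group medians of Prkcd fell in this order, with the lowest and highest rat of each. Ethanol saline day 16 was highest at 7.88 (6.21 to 9.43, n = 5), and control adjuvant day 39 had 7.72 (5.42 to 9.15, n = 8). Pairfed adjuvant day 16 had 7.71 (5.62 to 9.97, n = 9) and pairfed saline day 39 had 7.45 (6.05 to 8.79, n = 6). Control adjuvant day 16 had 7.31 (4.91 to 10.2, n = 9) and ethanol adjuvant day 39 had 7.02 (5.63 to 8.64, n = 9). In these 6 groups the middle rat lay above the median of the whole tissue, 6.42. Control saline day 16 had 6.29 (4.66 to 9.01, n = 5), ethanol saline day 39 had 6.23 (5.30 to 8.99, n = 6) and control saline day 39 had 6.21 (5.55 to 6.80, n = 6). Ethanol adjuvant day 16 had 6.09 (4.56 to 9.999, n = 9), pairfed adjuvant day 39 had 5.97 (5.35 to 9.08, n = 7) and pairfed saline day 16 had 5.82 (5.62 to 8.99, n = 5). Control saline day 39 was the only one of the 12 with no rat above 7. No neighbours differed by more than the smaller of their SDs, and the ranges of all 66 pairs of groups overlapped. Of all tested probes 8.64% had at least 1 pair that did not overlap in the hippocampus and 6.75% in the cortex. In the cortex group medians ran from 6.33 to 6.96.

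Group medians of Tcf7l2 ran from 4.98 to 5.51 in the hippocampus and from 4.92 to 5.28 in the cortex, and all 66 pairs of groups overlapped in each. For Calb2 they ran from 5.65 to 6.70 and from 5.77 to 6.27, again with all pairs overlapping. Tnnt1 medians ran from 4.84 to 5.59 in the hippocampus, where 2 of 66 pairs did not overlap, and from 4.96 to 5.79 in the cortex. In both of those pairs control saline day 39 was the higher group and a group in which no array detected Tnnt1 the lower, and 2.91% of tested probes had 2 or more such pairs. The smallest unadjusted p of the 80 tests belonged to Tnnt1 in the cortex at day 39, with means of 5.51 in adjuvant and 5.10 in saline samples. Its difference adjusted for chip was 0.40 ± 0.12 (limma adjusted p = 0.481). Tnnt1 was detected in 16 of 27 adjuvant and 1 of 18 saline samples there. The difference of this response between hippocampus and cortex was -0.46 ± 0.17 (adjusted p = 0.990), and none of the 8 such tests was called.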

How the data were processed

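The deposited non-normalized table holds, per the file headers, 1 signal column and 1 detection p-value column for every array. Its values were read as log2 signal from their range, and so were those of the authors' deposited value table. No scanner software is named in the labels used here. Column medians of the authors' table ran from 7.19 to 7.19 in the hippocampus and from 7.13 to 7.13 in the prefrontal cortex. How it was centred is not stated. Of 192 arrays, 171 (1 per rat and tissue) entered the comparisons, and 21 repeat arrays gave the spread between repeats.

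Signals were background-corrected with limma 3.58.1 (nec, offset of 16) in R 4.3.3, log2-transformed and then quantile-normalized over 192 arrays. A probe was tested where 5 or more arrays of the tissue detected it (p below 0.05), which left 15320 in the hippocampus, 15250 in the cortex, 16129 in either and 14441 in both. Gene names came from the platform annotation: 13787 of 22502 probes had 1 symbol, 8715 had none, and 13747 were matched to the RefSeq gene table. Adjusted p-values are Benjamini-Hochberg over all tested probes from limma's lmFit and eBayes. Within a tissue 12 group means were fitted with chip as a fixed block. The tissue difference used rat as a fixed and chip as a random block (duplicateCorrelation, statmod 1.5.0). Correlations used residuals after group and chip, with 100000 two-sided permutations and Benjamini-Hochberg adjustment over 6 pairs. On simulated data 96% of 2-fold and 68% of 1.5-fold changes were called for adjuvant against saline at day 16 in the hippocampus (15320 probes), and 11 unchanged probes were called too. The changed probes were drawn at random, so these shares describe a typical probe and not Prkcd. The SE of this comparison was 0.478 for Prkcd, against a median of 0.131 over all tested probes.

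The 4 genes, the marker lists and the 2 rats in doubt were chosen with earlier results of these data known. The named genes are, for each of the 4, the 5 named probes with the highest and the 3 with the lowest correlation in the hippocampus. From each list they are up to 4 genes with the smallest p between tissues and up to 3 with the highest correlation, of which the text gives a selection. The lists are thalamus, habenula, hippocampus, neocortex, striatum, choroid plexus, oligodendrocyte and myelin, inhibitory interneurons, hypothalamus and midbrain, Wnt and beta-catenin pathway, protein kinase C family, troponin and tropomyosin, and calcium-binding proteins. Alternatives changed the background correction, normalization, offset, filter, blocks, the authors' values and the rats included. The number of arrays limits the precision.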

Additional observations from a re-analysis of the deposited data

Results flagged for a closer look

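In 6 of 96 combinations of gene and group 1 rat stood apart from the others of its group, and chance gives about 1 in 20 such cases. Prkcd in the hippocampus had 3 of them, all high: 8.989 in pairfed saline day 16 replicate 5 (others 5.618 to 6.319), 9.076 in pairfed adjuvant day 39 replicate 4 (others 5.352 to 6.766) and 8.992 in ethanol saline day 39 replicate 4 (others 5.297 to 6.357). Prkcd in the cortex was low at 5.438 in pairfed saline day 16 replicate 2 (others 6.65 to 7.094). Tnnt1 in the hippocampus was 5.066 in pairfed saline day 16 replicate 1 (others 4.859 to 4.907) and 5.271 in pairfed saline day 39 replicate 6 (others 4.801 to 4.921), in 2 groups where no array detected it.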

How the results depend on the processing

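The correlations of Prkcd with Tcf7l2 (0.538 to 0.642), Prkcd with Calb2 (0.459 to 0.514) and Tcf7l2 with Calb2 (0.384 to 0.472) passed under all 9 alternatives run, and the 3 pairs with Tnnt1 passed under none of them. The tissue difference was called under all 11 alternatives for Prkcd (0.41 to 0.58) and Calb2 (0.12 to 0.31). That of Tnnt1 was not called with median scaling (-0.163), the authors' values (-0.020), an offset of 50 (-0.089), without the 2 rats in doubt (-0.163), without the 8 rats that missed their own array at a cutoff of 0.8 (-0.139, chosen after seeing the data), with repeat arrays averaged (-0.160) and with quantile normalization within each tissue (-0.147). That of Tcf7l2 was called with the authors' values (0.108). The causes were not tested. Probes called between tissues ran from 4756 to 8032. Median scaling called 16 probes for adjuvant against saline at day 16 in the hippocampus, in place of 9. None of 544 alternative values of the treatment and diet comparisons was called.

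With no replicate block for the rat, the tissue difference of Prkcd was 0.46 and that of Tnnt1 -0.162, both called. Replicate numbers were not taken to pair rats across groups: deviations of same-numbered rats correlated at 0.058 on average in the hippocampus and 0.026 in the cortex, and 21 of 84 and 24 of 87 rats were most like their own number. With the replicate number as a replicate block, the day 16 adjuvant difference of Prkcd in the hippocampus was 0.14 and 13 probes were called. Low detection of Tcf7l2 and Tnnt1 limits what can be seen of them.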
